A study of Mus musculus with 16 samples.

Results

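The proteasome genes of the mouse liver were followed on 16 expression arrays, and they were taken as every probe whose annotated gene symbol begins with Psm, a letter from a to g, and a number. The rule found 67 probes of 45 genes, out of 25697 probes and 16593 gene symbols on the array. Of these genes, 43 encode subunits, activators or assembly chaperones of the proteasome, and Psmc3ip and Psme3ip1 match the spelling but encode partner proteins. Psma8, Psmb11, Psmd3, Psmf1 and Psmg4 had no probe under this rule and were not analysed here.

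The study asked how the liver transcriptome responds to a reduced dose of Trim28, a co-repressor that silences chromatin. The tested livers came from Trim28MommeD9/+ mice, which carry 1 copy of an ENU-induced splice-site mutation of Trim28, and the controls were their Trim28+/+ littermates. All mice were males of 4 weeks of age in the FVB/NJ background, from a line that carries a GFP transgene in both genotypes. The labels give 7 arrays to Trim28MommeD9/+ and 9 to Trim28+/+, and the study describes 4 mice per genotype with technical replicates. Neither source says which arrays share a mouse, so each test counts arrays, and its p-value is too small where arrays share a mouse.

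The proteasome is the main protease of the cytosol and nucleus, and it degrades proteins tagged with ubiquitin. Its barrel-shaped core is built from rings of alpha subunits, which gate the entrance, around rings of beta subunits, some of which cut the peptide chain. A regulatory particle with ATPase and non-ATPase subunits recognises, unfolds and feeds in the substrate, and chaperones assemble both parts. In liver, as elsewhere, interferon can exchange the catalytic subunits for those of the immunoproteasome, and the transcription factor NRF1 is known to raise proteasome genes when the proteasome is inhibited.

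Each level below is a normalized log2 intensity, made from the probe intensities by background correction and quantile normalization. A level may be compared between arrays for 1 probe but not between probes. A fold change is the Trim28MommeD9/+ mean minus the Trim28+/+ mean on this scale, with its standard error (SE) and a p-value adjusted over the 7302 genes tested with limma, and a gene passed at an adjusted p under 0.05. The arrays differed in brightness before normalization, with a mean intensity of 205 to 270 on Trim28MommeD9/+ arrays and 273 to 344 on Trim28+/+ arrays. A constant, subtracted by the authors from each array, was 37.6 to 40.3 on the 7 Trim28MommeD9/+ arrays and 42.7 on Trim28+/+ replicate 1. These 8 arrays are the low-background set, and the constant was 48.8 to 56.2 on the other 8. Replicate 1 was the nearest Trim28+/+ array in background but was not fully matched to the Trim28MommeD9/+ arrays. Its mean intensity was 317, above their range. Its 10262 detected probes were the most of any array, against 9186 to 9572 on Trim28MommeD9/+ arrays. Array background and genotype can therefore be separated only through Trim28+/+ replicate 1, and the difference between the Trim28MommeD9/+ mean and that single array is given beside each proteasome gene that passed, except Psmd6, which was detected neither there nor on any Trim28MommeD9/+ array. The summed linear level of 8 hepatocyte markers was 119258 to 123207 on Trim28MommeD9/+ arrays and 116254 to 128572 on Trim28+/+ arrays. Most of this sum came from Ttr, Apoa1, Apoa2, Fga and Trf, with means of 14.3 to 14.6 in both genotypes. Quantile normalization gives every array the same set of values, which keeps such sums alike, so the sum does not check the tissue. Of the 8, 2 were lower by limma, namely Serpina1a (-0.80, SE 0.19, adjusted p = 0.00738) and Alb (-1.21, SE 0.22, adjusted p = 0.00163), whose probe was dim and detected on 5 of 7 Trim28MommeD9/+ arrays and 9 of 9 Trim28+/+ arrays. Against Trim28+/+ replicate 1 they read 0.22 and 0.36. Tat and Fgb had no probe that passed the detection filter.

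Of the 45 proteasome genes, 42 had a probe that was detected and were tested. In Trim28MommeD9/+ livers 6 of them were higher, against a background of 10.4% of all genes tested, and 10 were lower, against a background of 11.4%. The other 26 did not pass. The higher count was near what the share of all genes would give and the lower count was above it, which was not tested. When arrays that resemble each other were treated as presumptive technical pairs, 1 was higher (background 2.41%) and 0 were lower (background 4.26%). The median fold change of the 42 was -0.01 against 0.05 for all genes. Without Psmc3ip and Psme3ip1, which did not pass, the median of the other 40 was 0.01. The directions were unevenly spread over the roles. Assembly chaperones held 4 of the 6 increases and no decrease, and non-ATPase subunits of the regulatory particle held 5 of the 10 decreases and no increase. These counts read each gene from its brightest probe. Dimmer probes of the chaperones Psmg2, counted here as higher, and Psmd9 were lower, as described below. Psma1, Psma6 and Psmc6 were detected on none of the 16 arrays and were not tested. In whole liver, fewer cells of a type and less RNA per cell cannot be told apart.

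**Figure D1:**
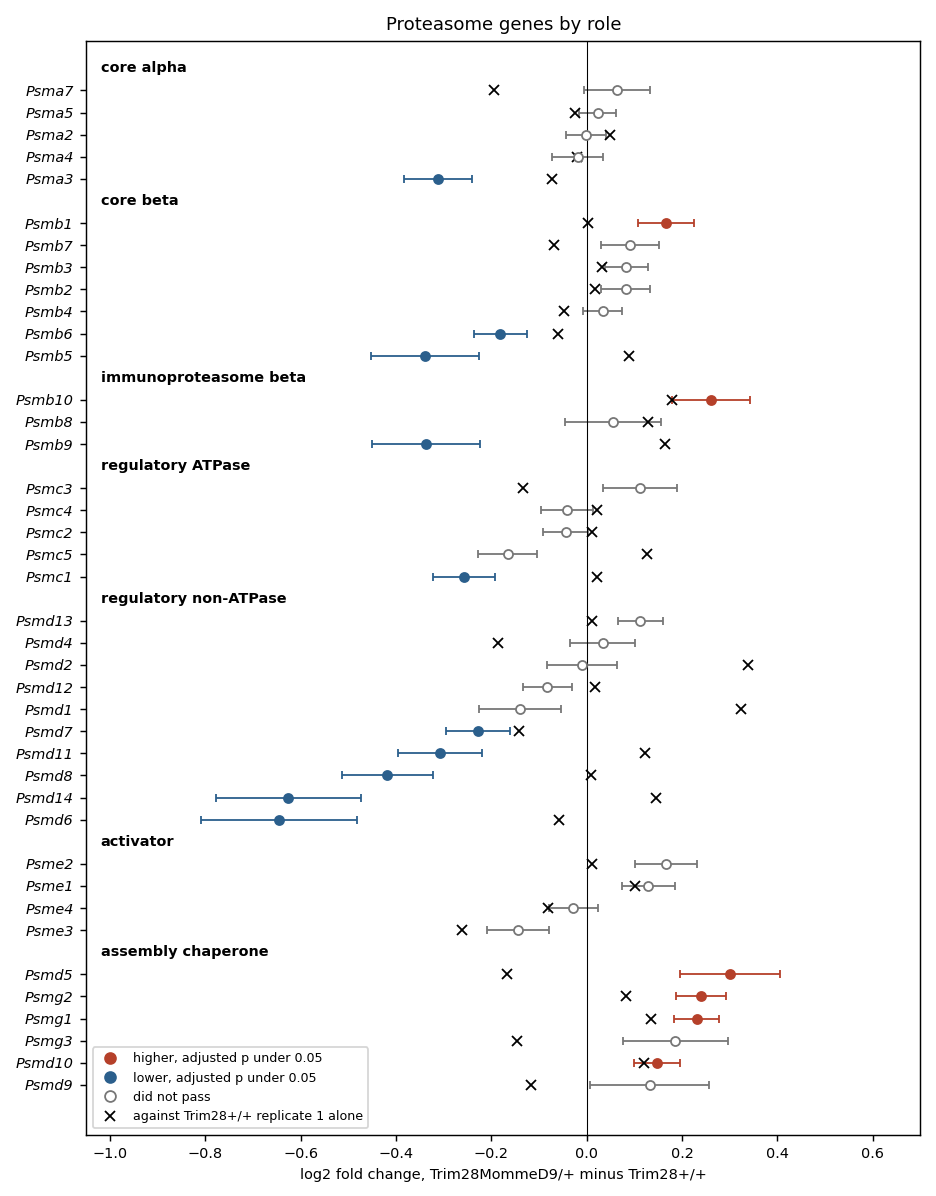
Log2 fold change (Trim28MommeD9/+ minus Trim28+/+, horizontal axis) of the 40 tested proteasome genes with a role, grouped by role. Circles and bars give the value and its standard error over 16 arrays, filled circles passed the test, and crosses give the difference from Trim28+/+ replicate 1 alone. The 6 filled circles on the right are mostly assembly chaperones, and most crosses of the 10 lower genes lie near 0 or to its right.

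The start regions of several members whose levels are described below are shown here, because the antioxidant response element and the CCAAT box are the elements most often discussed for proteasome genes. A window of 250 bases before to 50 after the start was taken for each gene from RefSeq (GRCm38.p6), and 39 of the 45 genes had an entry. The capitals mark the core of the antioxidant response element, TGACNNNGC, which is bound by NRF1 and NRF2. Both sequences belong to catalytic beta subunits that were lower in Trim28MommeD9/+ livers, and each is written 5′ to 3′ in the direction of its gene.
Psmb5, chr14:54618018-54618058, minus strand: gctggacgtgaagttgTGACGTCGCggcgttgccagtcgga
Psmb6, chr11:70525332-70525356, plus strand: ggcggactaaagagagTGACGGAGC

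On either strand, TGACNNNGC was found in the windows of 6 of 39 proteasome genes (15.4%), namely Psmb5, Psmb6, Psmc6, Psmd9, Psmd12 and Psme4, and in 13.99% of 27025 genes with a window. The CCAAT box, bound by NF-Y, was found on either strand in 15 of 39 (38.5%) against 41.1% of all genes. Both shares were close to those of all genes. Among the genes lower in Trim28MommeD9/+, 2 of 9 with a window held the first motif and 4 of 9 the second, against 0 of 4 and 1 of 4 among those higher. The 4 lower genes with a CCAAT box were Psma3, Psmc1, Psmd14 and Psmb9, shown with the box in capitals, which reads ATTGG where it lies on the opposite strand.
Psma3, chr12:70974468-70974504, plus strand: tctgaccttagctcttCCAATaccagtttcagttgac
Psmc1, chr12:100110011-100110047, plus strand: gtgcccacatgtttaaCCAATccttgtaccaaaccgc
Psmd14, chr2:61711519-61711555, plus strand: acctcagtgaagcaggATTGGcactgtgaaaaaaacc
Psmb9, chr17:34187331-34187354, minus strand: ccgcgcgcagccgctgATTGGaaa

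A match is a description of the letters and not a site in use, and no match says only that these letters are not in this window. The windows do not set the lower genes apart from the higher ones in these small numbers.

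Among the alpha subunits of the core, 1 of the 5 tested genes was lower and the other 4 differed little. Psma3, which encodes an outer-ring subunit, had levels from 11.22 to 11.60 (median 11.46) on Trim28MommeD9/+ arrays, against 11.52 to 11.996 (median 11.76) on Trim28+/+ arrays. On 5 of 7 Trim28MommeD9/+ arrays it lay below each Trim28+/+ array, and Trim28+/+ replicate 1 was the lowest of its group at 11.52. The fold change was -0.31 (SE 0.07, adjusted p = 0.00562 from limma), and -0.07 against Trim28+/+ replicate 1. Psma2, Psma4, Psma5 and Psma7 had fold changes of -0.02 to 0.06 and adjusted p-values of 0.528 to 0.982 from limma. Their levels were between 10.82 and 12.05 on Trim28MommeD9/+ arrays and between 10.64 and 12.12 on Trim28+/+ arrays, with overlap of the genotypes for each gene. Of the alpha genes, 0 were higher by limma, and 0 were higher at an unadjusted p under 0.05.

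The constitutive beta subunits were divided, with 1 of 7 higher and 2 lower, and both lower ones are catalytic. Psmb5, the subunit with chymotrypsin-like activity and the target of bortezomib, had levels from 6.25 to 6.59 (median 6.38) on Trim28MommeD9/+ arrays and from 6.29 to 7.21 (median 6.66) on Trim28+/+ arrays. The lowest Trim28+/+ level was that of replicate 1, and 7 of the 9 Trim28+/+ arrays lay outside the range of the Trim28MommeD9/+ arrays. Its fold change was -0.34 (SE 0.11, adjusted p = 0.0392 from limma), and 0.09 against Trim28+/+ replicate 1. Psmb6, the caspase-like subunit, had levels from 10.67 to 11.01 (median 10.82) on Trim28MommeD9/+ arrays and from 10.92 to 11.21 (median 11.03) on Trim28+/+ arrays. For Psmb6, 4 of 7 Trim28MommeD9/+ arrays lay below the Trim28+/+ range. The fold change of Psmb6 was -0.18 (SE 0.06, adjusted p = 0.029 from limma), and -0.06 against Trim28+/+ replicate 1. The trypsin-like subunit Psmb7 had levels from 10.85 to 11.01 (median 10.96) on Trim28MommeD9/+ arrays and from 10.50 to 11.01 (median 10.87) on Trim28+/+ arrays. Those ranges overlapped throughout, and Psmb7 had a fold change of 0.09 (SE 0.06, adjusted p = 0.293 from limma).

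Psmb1, a structural subunit of the inner ring, was higher in Trim28MommeD9/+ livers. It had levels from 10.77 to 11.06 (median 10.90) on Trim28MommeD9/+ arrays and from 10.54 to 10.89 (median 10.71) on Trim28+/+ arrays. The highest of the Trim28+/+ arrays was again replicate 1, which 4 of 7 Trim28MommeD9/+ arrays exceeded. The fold change was 0.17 (SE 0.06, adjusted p = 0.0494 from limma), and 0.00 against Trim28+/+ replicate 1. The structural subunits Psmb2, Psmb3 and Psmb4 had fold changes of 0.03 to 0.08 and adjusted p-values of 0.189 to 0.591 from limma.

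The 3 inducible subunits of the immunoproteasome went different ways, with Psmb10 higher, Psmb9 lower and Psmb8 at a similar level in both genotypes. Psmb10, which takes the place of Psmb7, had levels from 9.19 to 9.57 (median 9.36) on Trim28MommeD9/+ arrays and from 8.67 to 9.25 (median 9.17) on Trim28+/+ arrays. On 5 of 7 Trim28MommeD9/+ arrays Psmb10 was above all Trim28+/+ arrays. The fold change of Psmb10 was 0.26 (SE 0.08, adjusted p = 0.031 from limma), and 0.18 against Trim28+/+ replicate 1. Its second probe read 0.24 (SE 0.07, adjusted p = 0.0129 from limma over all probes).

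Psmb9, which takes the place of Psmb6 and lies in the major histocompatibility complex, had levels from 7.68 to 8.01 (median 7.82) on Trim28MommeD9/+ arrays and from 7.68 to 8.53 (median 8.18) on Trim28+/+ arrays. Trim28+/+ replicate 1 was the lowest of its group and read 7.68, at the lower end of the Trim28MommeD9/+ range. The fold change of Psmb9 was -0.34 (SE 0.11, adjusted p = 0.041 from limma), and 0.16 against Trim28+/+ replicate 1. Psmb8, the inducible counterpart of Psmb5, had levels from 5.62 to 6.03 (median 5.86) on Trim28MommeD9/+ arrays and from 5.32 to 6.15 (median 5.80) on Trim28+/+ arrays. Psmb8 overlapped fully between the genotypes, with a fold change of 0.06 (SE 0.10, adjusted p = 0.729 from limma).

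Whether an inducible probe and its constitutive counterpart changed unequally was read from their difference within each array, with no test and without setting the level of 1 probe against the other. That difference was 0.40 higher in Trim28MommeD9/+ than in Trim28+/+ for Psmb8 and Psmb5. For Psmb9 and Psmb6 the change of the difference was -0.16, and for Psmb10 and Psmb7 it was 0.17. The 3 pairs did not move in 1 direction, and the ranges over arrays overlapped between the genotypes. Against Trim28+/+ replicate 1 alone the changes were 0.04, 0.22 and 0.25.

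Immune cells carry more immunoproteasome than hepatocytes, so markers of liver leukocytes are given beside these genes. Of 7 tested Kupffer cell markers, 5 were higher and 0 lower in Trim28MommeD9/+ (limma; 1 was lower at an unadjusted p under 0.05), with a summed linear level of 1991 to 2469 on Trim28MommeD9/+ arrays and 1472 to 1985 on Trim28+/+ arrays. The share of all genes higher was 10.4%. When arrays that resemble each other were treated as presumptive technical pairs, 2 Kupffer markers were higher (background 2.41%). When arrays were scaled by the median of all probes, 0 were higher (background 0.479%) and 1 was lower (background 34.6%). Against Trim28+/+ replicate 1 the 7 markers had a median difference of 0.22, and the summed level on that array was 1810. Of the 10 listed Kupffer cell markers 8 had a probe under their symbol, and Cd68, Csf1r and Cd5l had none that passed the detection filter. Of 14 other leukocyte markers 5 were tested and 0 passed in either direction by limma, also at an unadjusted p under 0.05, and their summed level was 652 to 738 on Trim28MommeD9/+ arrays against 560 to 1139 on Trim28+/+ arrays. The pan-leukocyte gene Ptprc had no probe that passed the filter. The part of these cells in the levels of Psmb9 and Psmb10 was not tested.

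Of the ATPases that form the motor ring of the regulatory particle, 5 were tested and 1 was lower. Psmc1 had levels from 9.08 to 9.31 (median 9.16) on Trim28MommeD9/+ arrays and from 9.16 to 9.57 (median 9.47) on Trim28+/+ arrays. On 4 of 7 Trim28MommeD9/+ arrays it lay below the Trim28+/+ range, whose lowest array was replicate 1, and 7 of 9 Trim28+/+ arrays lay outside the Trim28MommeD9/+ range. Psmc1 had a fold change of -0.26 (SE 0.06, adjusted p = 0.00918 from limma), and 0.02 against Trim28+/+ replicate 1. Psmc5, another ATPase, had a fold change of -0.17 (SE 0.06, adjusted p = 0.0629 from limma) and did not pass. Against Trim28+/+ replicate 1 Psmc5 read 0.13. Its second probe read 0.03 (SE 0.07, adjusted p = 0.755 from limma over all probes). Psmc2, Psmc3 and Psmc4 had fold changes of -0.04 to 0.11 and adjusted p-values of 0.304 to 0.617 from limma. No ATPase was higher by limma, and 0 were higher at an unadjusted p under 0.05.

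The largest decreases lay among the non-ATPase subunits, where 5 of 10 genes were lower and the median fold change was -0.18, or 0.01 against Trim28+/+ replicate 1. The 5 genes, Psmd6, Psmd7, Psmd8, Psmd11 and Psmd14, all encode parts of the lid, the section of the regulatory particle that removes ubiquitin chains, a grouping that was seen only after their values were known. Psmd14, the deubiquitinating enzyme of the lid, had levels from 6.52 to 7.08 (median 6.97) on Trim28MommeD9/+ arrays and from 6.69 to 7.99 (median 7.42) on Trim28+/+ arrays. Trim28+/+ replicate 1 lay within the Trim28MommeD9/+ range at 6.69, and the other 8 Trim28+/+ arrays lay above that range. The fold change was -0.63 (SE 0.15, adjusted p = 0.00806 from limma), and 0.15 (SE 0.25) against Trim28+/+ replicate 1. Psmd7, which pairs with the Psmd14 protein, had levels from 8.71 to 9.07 (median 8.95) on Trim28MommeD9/+ arrays and from 9.01 to 9.26 (median 9.12) on Trim28+/+ arrays. On 5 of 7 Trim28MommeD9/+ arrays Psmd7 was below all Trim28+/+ arrays, and replicate 1 was not the lowest of the Trim28+/+ group here. Psmd7 had a fold change of -0.23 (SE 0.07, adjusted p = 0.0214 from limma), and of -0.14 against Trim28+/+ replicate 1.

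The scaffold subunits of the lid followed. Psmd8 had levels from 5.44 to 5.85 (median 5.57) on Trim28MommeD9/+ arrays and from 5.61 to 6.34 (median 6.09) on Trim28+/+ arrays, where 8 of 9 arrays exceeded each Trim28MommeD9/+ array and replicate 1 did not. Its fold change was -0.42 (SE 0.10, adjusted p = 0.00566 from limma), and 0.01 against Trim28+/+ replicate 1. Psmd11 had levels from 7.51 to 7.80 (median 7.63) on Trim28MommeD9/+ arrays and from 7.52 to 8.24 (median 7.99) on Trim28+/+ arrays. The lowest Psmd11 level of the Trim28+/+ group was that of replicate 1. The fold change of Psmd11 was -0.31 (SE 0.09, adjusted p = 0.0188 from limma), and 0.12 against Trim28+/+ replicate 1. Psmd6 was close to background, with detection on 0 of 7 Trim28MommeD9/+ arrays and on 5 of 9 Trim28+/+ arrays. Its levels were 4.41 to 4.88 (median 4.58) on Trim28MommeD9/+ arrays and 4.67 to 6.00 (median 5.22) on Trim28+/+ arrays, of which replicate 1 was the lowest. Psmd6 was lower by these levels (adjusted p = 0.0102 from limma). Set against the lowest detected level of each Trim28MommeD9/+ array, the Trim28+/+ mean was 1.05-fold higher. That fold was not tested, and its Trim28+/+ mean includes arrays where Psmd6 was not detected.

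The other 5 non-ATPase genes did not pass. Psmd1 and Psmd2, the large scaffolds of the base, had fold changes of -0.14 and -0.01, and the ubiquitin receptor Psmd4 had 0.03. The lid subunits Psmd12 and Psmd13 had -0.08 and 0.11. Their adjusted p-values were 0.0974 to 0.935 from limma. No non-ATPase gene was higher by limma, and 1 was higher at an unadjusted p under 0.05.

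**Figure D2:**
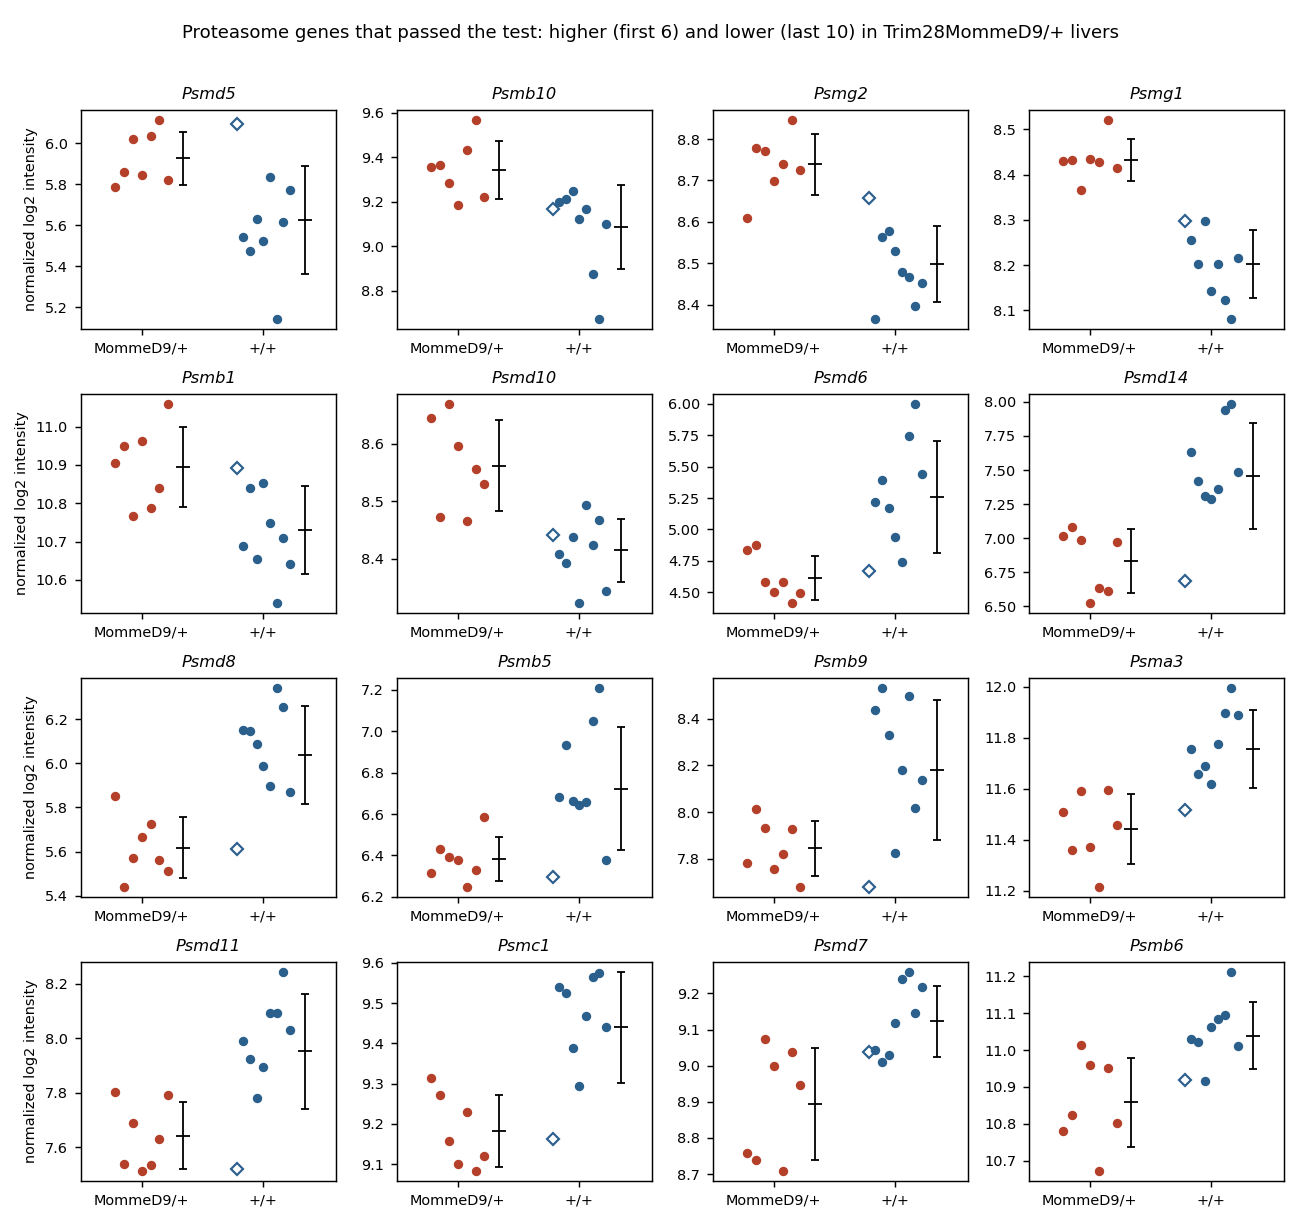
Normalized log2 intensity by array (vertical axes, which differ between panels) of the 16 proteasome genes that passed the test, with the 7 Trim28MommeD9/+ arrays left and the 9 Trim28+/+ arrays right in each panel. Open diamonds mark Trim28+/+ replicate 1, and black bars give the mean and SD. Only the Psmg1 arrays of the genotypes do not overlap, and the diamond lies within the Trim28MommeD9/+ range for all 10 lower genes.

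The activators, which open the core in place of the regulatory particle, had 4 tested genes of which none passed by limma (2 were higher and 1 was lower at an unadjusted p under 0.05). Psme2, an interferon-induced subunit of the PA28 ring, had levels from 8.51 to 8.78 (median 8.59) on Trim28MommeD9/+ arrays and from 8.30 to 8.61 (median 8.50) on Trim28+/+ arrays. The upper end of the Trim28+/+ range overlapped with the Trim28MommeD9/+ range, and 3 of 7 Trim28MommeD9/+ arrays lay above it. Psme2 had a fold change of 0.17 (SE 0.06, adjusted p = 0.0741 from limma), and 0.01 against Trim28+/+ replicate 1. Its partner Psme1 had 0.13, and the nuclear activators Psme3 and Psme4 had -0.14 and -0.03. The second Psme1 probe, with a level of 9.70 to 9.96 on Trim28MommeD9/+ arrays and 9.48 to 9.78 on Trim28+/+ arrays, was higher by 0.20 (SE 0.06, adjusted p = 0.0179 from limma over all probes).

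Assembly chaperones were the role with the highest median fold change, 0.21, which was -0.05 when arrays were scaled by the median of all probes and -0.02 against Trim28+/+ replicate 1, and 4 of 6 passed, all higher. Read from the brightest probe of each gene, no assembly chaperone was lower by limma, and 0 were lower at an unadjusted p under 0.05. Dimmer probes of Psmg2 and Psmd9 were lower. Psmg1, which with Psmg2 assembles the ring of alpha subunits, had levels from 8.37 to 8.52 (median 8.43) on Trim28MommeD9/+ arrays and from 8.08 to 8.30 (median 8.20) on Trim28+/+ arrays. All 7 Trim28MommeD9/+ arrays lay above all 9 Trim28+/+ arrays, replicate 1 included, which was found for 1.29% of all genes tested. No proteasome gene had all its Trim28MommeD9/+ arrays below all Trim28+/+ arrays, which was found for 1.11% of all genes. Psmg1 had a fold change of 0.23 (SE 0.05, adjusted p = 0.00326 from limma), and 0.13 (SE 0.10) against Trim28+/+ replicate 1.

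Psmg2 had levels from 8.61 to 8.85 (median 8.74) on Trim28MommeD9/+ arrays and from 8.37 to 8.66 (median 8.48) on Trim28+/+ arrays. On 6 of 7 Trim28MommeD9/+ arrays this probe was above the Trim28+/+ range, whose upper end was replicate 1. The fold change was 0.24 (SE 0.05, adjusted p = 0.00476 from limma), and 0.08 against Trim28+/+ replicate 1. A second probe of Psmg2 went the other way, as described below, so the direction of this gene is unsettled.

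Psmd10, also called gankyrin, and Psmd5 are chaperones of the ATPase ring. Psmd10 had levels from 8.47 to 8.67 (median 8.56) on Trim28MommeD9/+ arrays and from 8.32 to 8.49 (median 8.42) on Trim28+/+ arrays, with 5 of 7 Trim28MommeD9/+ arrays above the Trim28+/+ range. It had a fold change of 0.15 (SE 0.05, adjusted p = 0.0365 from limma), and 0.12 against Trim28+/+ replicate 1. A dimmer Psmd10 probe read -0.26 (adjusted p = 0.0584 from limma over all probes). Psmd10 did not pass when its probes were averaged. Psmd5 had levels from 5.79 to 6.11 (median 5.86) on Trim28MommeD9/+ arrays and from 5.14 to 6.09 (median 5.62) on Trim28+/+ arrays. Its highest Trim28+/+ level was that of replicate 1, near the top of the Trim28MommeD9/+ range. Psmd5 had a fold change of 0.30 (SE 0.11, adjusted p = 0.0495 from limma), and -0.17 against Trim28+/+ replicate 1. The third chaperone of that ring, Psmd9, had 0.13 and Psmg3, a chaperone of the alpha ring, had 0.19, with adjusted p-values of 0.466 and 0.229 from limma. Psmc3ip, a cofactor of meiotic recombination, and Psme3ip1, a partner of the Psme3 protein, had -0.11 and -0.10 and did not pass.

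Several genes had more than 1 probe, and their probes did not always move together. Of the 67 probes, 57 were detected and tested, with 8 higher in Trim28MommeD9/+ (background 11.1% of 10291 probes) and 13 lower (background 12.2%). For 5 of the 13 genes with several such probes the probes differed in sign. The dimmer Psmg2 probe had levels from 7.02 to 7.34 (median 7.10) on Trim28MommeD9/+ arrays and from 6.99 to 8.11 (median 7.76) on Trim28+/+ arrays, and a fold change of -0.57 (SE 0.12, adjusted p = 0.00405 from limma over all probes). Trim28+/+ replicate 1 was the lowest of all 16 arrays for this probe, whereas it was the highest of its group for the brighter one.

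The dimmer Psmd9 probe was detected on 1 of 7 Trim28MommeD9/+ arrays and on 9 of 9 Trim28+/+ arrays. Its levels were 4.88 to 5.42 (median 5.00) on Trim28MommeD9/+ arrays and 5.32 to 6.00 (median 5.66) on Trim28+/+ arrays, and it was lower (adjusted p = 0.00152 from limma over all probes), with no fold given since it was near background in Trim28MommeD9/+. The dimmer Psmd12 probe was detected on 0 of 7 Trim28MommeD9/+ arrays and on 7 of 9 Trim28+/+ arrays, and was also lower (adjusted p = 0.00226 from limma over all probes). In both genes the brighter probe did not pass. The 3 Psmd10 probes had fold changes of 0.15, 0.22 and -0.26, and 1 of them passed. Both Psmd7 probes were negative, with -0.23 and -0.19.

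**Figure D3:**
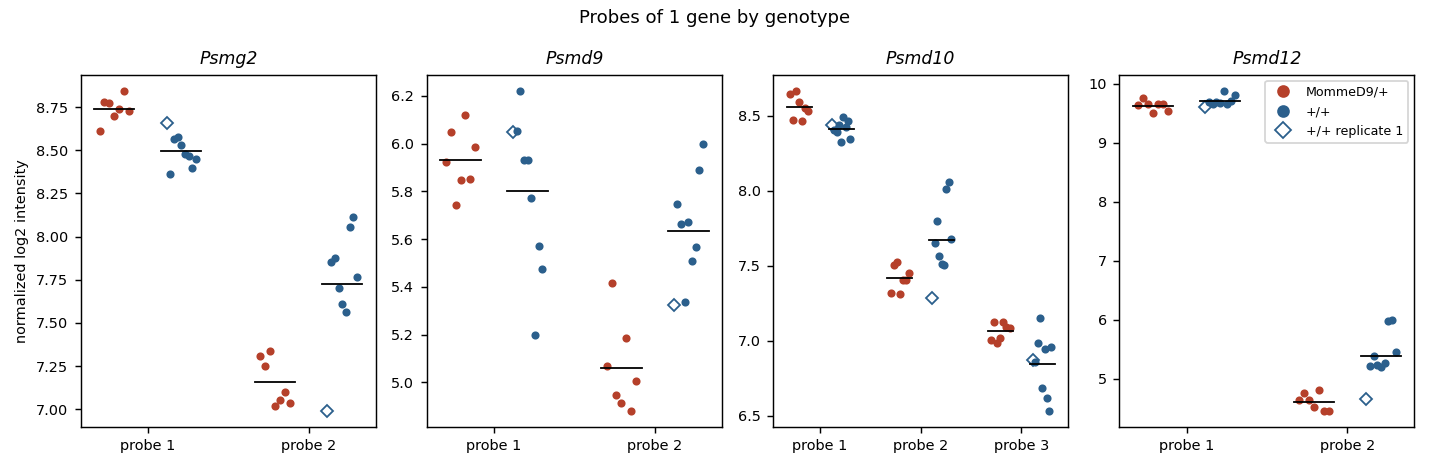
Normalized log2 intensity by array (vertical axes, which differ between panels) for each detected probe of Psmg2, Psmd9, Psmd10 and Psmd12, with Trim28MommeD9/+ arrays left of Trim28+/+ arrays and lines at the means. Open diamonds mark Trim28+/+ replicate 1. The Psmg2 probes differ in opposite directions, with fold changes of 0.24 and -0.57.

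A larger share of the dimmer proteasome genes was lower, a difference that was not tested. Of 11 proteasome genes with a mean level under 8, 5 were lower in Trim28MommeD9/+ (45.5%) and 1 was higher, against 11.7% lower and 9.95% higher among all genes under 8. Of 31 with a level of 8 or more, 5 were lower (16.1%) and 5 were higher, against 10.8% lower and 11.2% higher among all genes of this class.

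The place of Trim28+/+ replicate 1 was examined over all calls. It lay within the range of the Trim28MommeD9/+ arrays for 10 of 10 lower proteasome genes and for 3 of 6 higher ones, against 70.9% of all lower genes and 46.0% of all higher genes. Replicate 1 was the highest Trim28+/+ array for 4 of 6 higher proteasome genes, against 28.0% of all higher genes. It was the lowest for 8 of 10 lower ones, against 74.1% of all lower genes. With the background sets as a block, 0 proteasome genes were higher (limma; background 0.0274%) and 0 were lower (background 0.0137%), and at an unadjusted p under 0.05 there were 2 higher and 1 lower. Within the 8 low-background arrays alone, again 0 were higher (background 0.274%) and 0 lower (background 0.383%) by limma, with 2 and 2 at an unadjusted p under 0.05. Each of these fits sets the 7 Trim28MommeD9/+ arrays against 1 Trim28+/+ array, which is assumed to vary like the others, so its power is low. The part of array background in the decreases and in the increases was not tested further.

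Other treatments of the arrays moved the counts. Scaling by the median of all probes shifted the median fold change of all genes to -0.19, and 0 proteasome genes were then higher (background 0.479%, 0 at an unadjusted p under 0.05) and 23 were lower (background 34.6%). All 4 assembly chaperones and the other higher genes lost their call in this scaling. Scaling by the median of detected probes shifted that median to 0.08 and gave 10 higher (background 15.2%) and 8 lower (background 9.75%). The authors' own scaled values gave 3 higher (background 5.16%) and 11 lower (background 14.8%). Without the filter on dim probes, 2 of 45 genes were higher (background 2.78%) and 7 lower (background 4.32%).

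Arrays that resemble each other were treated as presumptive technical pairs, since the study ran technical replicates. The pairs were chosen by correlation in these same data (0.47 to 0.86) and are not known to share a mouse. More Trim28+/+ units remained than the 4 mice described, so p-values of this fit can still be too small. In that fit 1 proteasome gene was higher (background 2.41%) and 0 were lower (background 4.26%), with 4 and 10 at an unadjusted p under 0.05. The gene was Psmg1. With the replicate number as a block, 0 were higher (background 2.22%) and 3 were lower (background 5.19%), with 5 and 10 at an unadjusted p under 0.05.

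The study is concerned with variation between individuals, so the spread was compared as well, with no test. The SD over arrays was larger in Trim28MommeD9/+ than in Trim28+/+ for 7 of the 42 tested genes that match the rule, against 29.6% of all genes. They were Psma4, Psmb3, Psmb6, Psmd7, Psmd10 and Psmd12, and Psmc3ip, which only matches the spelling. The median SD of the 42 was 0.09 in Trim28MommeD9/+ and 0.14 in Trim28+/+, or 0.12 without Trim28+/+ replicate 1, and that of all genes was 0.14 and 0.19. Technical replicates are included in these spreads.

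Proteins that work beside the proteasome were read from lists of genes by function. Of 12 tested proteasome-associated proteins, 7 were lower and 0 higher in Trim28MommeD9/+ (0 higher at an unadjusted p under 0.05), with a median fold change of -0.30 against 0.05 for all genes, of which 11.4% were lower. With the presumptive pairs 3 were lower. Sem1, the small subunit that holds the lid together, had levels from 9.92 to 10.43 (median 10.18) on Trim28MommeD9/+ arrays and from 10.26 to 11.14 (median 10.66) on Trim28+/+ arrays. On 5 of 7 Trim28MommeD9/+ arrays Sem1 lay below all Trim28+/+ arrays, the lowest of which was replicate 1. The fold change of Sem1 was -0.54 (SE 0.11, adjusted p = 0.00252 from limma), and -0.08 against Trim28+/+ replicate 1. Ecpas, which binds the core and the regulatory particle, had -0.70 (SE 0.14, adjusted p = 0.00318 from limma), and -0.09 against Trim28+/+ replicate 1. Uchl5, a deubiquitinase of the regulatory particle, had -0.50 (SE 0.11, adjusted p = 0.00376 from limma), and -0.28 against Trim28+/+ replicate 1. Usp14, Rad23b, Ube3a and Ubqln1 were the other lower genes. They did not pass with the presumptive pairs (adjusted p = 0.115, 0.0854, 0.0854 and 0.233 from limma). Usp14 was detected on 0 of 7 Trim28MommeD9/+ arrays and 5 of 9 Trim28+/+ arrays. Ube3a was detected on 1 of 7 and 8 of 9, so both were near background in Trim28MommeD9/+. Over the 12 genes the median difference from Trim28+/+ replicate 1 was -0.07. Pomp, the chaperone that completes the core, had 0.07 and did not pass.

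**Figure D4:**
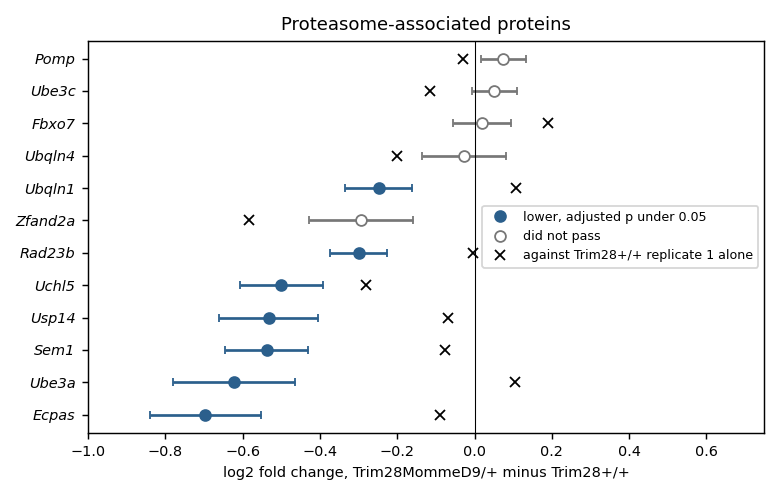
Log2 fold change (Trim28MommeD9/+ minus Trim28+/+, horizontal axis) of the 12 tested proteasome-associated proteins, with standard errors over 16 arrays. Filled circles passed the test and crosses give the difference from Trim28+/+ replicate 1 alone. The 7 genes that passed are all to the left of 0, and of these Usp14 and Ube3a were near background on Trim28MommeD9/+ arrays.

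Steps upstream of the proteasome, where ubiquitin is attached and substrates are extracted, were read in the same way. Of 18 tested ubiquitin-conjugating enzymes, 4 were lower and 1 was higher, among them Ube2q2 (-0.57, SE 0.12), Ube2q1 (-0.61, SE 0.13) and Ube2d3 (-0.48, SE 0.11), against 11.4% lower and 10.4% higher among all genes. With the presumptive pairs 2 were lower and 0 higher, and Ube2d3 did not pass (adjusted p = 0.103 from limma). The 7 Trim28MommeD9/+ arrays all lay below the 9 Trim28+/+ arrays for Ube2q2 (5.91 to 6.33 against 6.36 to 7.36) and Ube2d3 (5.54 to 5.69 against 5.72 to 6.66). That was found for 1.11% of all genes tested, and the lowest Trim28+/+ array was replicate 1 for both genes. Against Trim28+/+ replicate 1 alone the values were -0.21 for Ube2q2, -0.04 for Ube2q1 and -0.10 for Ube2d3. Of 14 genes of the p97 segregase and of degradation from the endoplasmic reticulum, 2 were lower and 0 higher (1 higher at an unadjusted p under 0.05), namely Plaa (-0.76, SE 0.14) and Ubxn1 (-0.52, SE 0.12), both cofactors of p97, which read -0.16 and 0.04 against Trim28+/+ replicate 1. That is close to the 11.4% of all genes that were lower, and with the presumptive pairs Ubxn1 did not pass (adjusted p = 0.0598 from limma). Of the 6 genes for ubiquitin and its E1 enzymes, only 1 had a probe under its symbol, and no probe of that gene passed the filter.

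Of the 4 tested regulators around NRF1 and NRF2, 1 was higher, Keap1, the adaptor that marks NRF2 for degradation (0.21, SE 0.06, adjusted p = 0.0211 from limma, and 0.01 against Trim28+/+ replicate 1). Keap1 did not pass with the presumptive pairs (adjusted p = 0.123 from limma) and read -0.05 with median scaling of all probes, where 0 of the 4 genes were higher and 2 were lower. The factors themselves did not pass by limma, and both were lower at an unadjusted p under 0.05. Nfe2l1, which encodes NRF1, had -0.26 (adjusted p = 0.0624 from limma). Nfe2l2, which encodes NRF2, had -0.38 (adjusted p = 0.0615 from limma). Against Trim28+/+ replicate 1 these were -0.39 and -0.04. The COP9 signalosome, a relative of the lid, had 2 of 8 genes higher and 0 lower (1 lower at an unadjusted p under 0.05), namely Cops7b (0.30, SE 0.09) and Cops3 (0.22, SE 0.07), which read 0.04 and 0.28 against Trim28+/+ replicate 1. Neither passed with the presumptive pairs (adjusted p = 0.128 and 0.162 from limma), and with median scaling of all probes 0 of the 8 genes were higher and 2 were lower. The share of all genes higher was 10.4% without that scaling.

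Of 10 tested genes that take peptides onward to MHC class I, 2 were higher and 1 lower, against 10.4% higher and 11.4% lower among all genes. Irf1, the interferon-responsive factor that induces Psmb9, had levels from 9.55 to 9.93 (median 9.78) on Trim28MommeD9/+ arrays and from 9.02 to 9.46 (median 9.25) on Trim28+/+ arrays. For Irf1 all Trim28MommeD9/+ arrays lay above all Trim28+/+ arrays, which was found for 1.29% of all genes tested. Its fold change was 0.52 (SE 0.08, adjusted p = 0.000749 from limma), and 0.66 against Trim28+/+ replicate 1. Tapbp, the tapasin that loads peptides, had 0.49 (SE 0.11), and the class I heavy chain H2-D1 had -0.92 (SE 0.16). Against Trim28+/+ replicate 1 these were 0.08 and -0.14, and Tapbp did not pass with the presumptive pairs (adjusted p = 0.0642 from limma). Of 7 tested cytosolic peptidases, which trim the products of the proteasome, Tpp2 was lower (-0.50, SE 0.10, and -0.08 against Trim28+/+ replicate 1) and 0 were higher by limma (3 higher at an unadjusted p under 0.05).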

How the data were processed

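Liver RNA was read on Illumina MouseRef-8 v2.0 arrays. The authors deposited 1 raw intensity for each probe on each array, before any background subtraction or normalization, and with it the authors deposited a detection p-value. A second deposited table holds intensity values after a constant was subtracted from each array and the arrays were scaled. BeadStudio and GenomeStudio are named, with versions not given in the sources used here.

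Of 25697 probes (833 blank lines removed), 23978 had 1 gene symbol, 23962 of them updated through the Entrez identifier, 0 had several and 1719 had none. The neqc function (limma 3.58.1, R 4.3.3, offset 16) corrected and normalized the values. A probe was kept if at least 3 of the 16 arrays gave it a detection p-value under 0.01 (10291 probes). Each gene was read from its brightest kept probe, giving 7302 genes. Genotypes were compared over all of them with limma's moderated test with an intensity trend and the Benjamini-Hochberg method at 0.05. Where no array of a group detected a gene, its fold is a bound, set by the lowest intensity that was detected on those arrays. Arrays per genotype limit the precision.

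Values by array were given for genes that passed, for Psmb5 to Psmb10 and for the gene with the smallest p in each role, and for each list up to 3 passing genes with the smallest p were named. Nfe2l1, Nfe2l2 and Pomp and the second probes were named after their values were seen. The members and lists were chosen with earlier results of these data known. Promoter windows came from RefSeq, and 39 of 45 genes matched by Entrez identifier. Summaries and plots were made with pandas 2.3.3, NumPy 2.4.6 and Matplotlib 3.10.9 under Python 3.11.15. Alternatives were other scaling, filters, probe rules, weights, blocks, pairs of arrays, a threshold of 0.01 and leaving out each array.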

Additional observations from a re-analysis of the deposited data

Results flagged for a closer look

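For Psmb7, the trypsin-like subunit, 1 array lay far from the others of its group. Trim28+/+ replicate 7 read a normalized log2 intensity of 10.50, and the other Trim28+/+ arrays read 10.80 to 11.01. Of 84 groups of arrays examined for the proteasome genes this was the only one, and chance gives about 1 in 20 groups.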

How the results depend on the processing

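Of 6 higher and 10 lower proteasome genes, the counts were 3 higher with the authors' values, 0 with median scaling of all probes, 10 with median scaling of detected probes, 2 without the filter, 1 with presumptive pairs, and 2 at an adjusted p under 0.01. Lower counts were 23 with median scaling of all probes, 0 with pairs and 4 at 0.01. With the background sets as a block and in low-background arrays alone there were 0 and 0, where the genotypes are compared through 1 Trim28+/+ array. Fits without background correction or an intensity trend, robust or weighted fits, the mean of probes and genes detected on all arrays gave 5 or 6 higher and 9 to 11 lower. The labels' replicate numbers are shared by 7 arrays of each genotype, but their correlations were -0.39 to 0.48 and 2 of 7 correlated best with their own, so they do not pair samples. The replicate block gave 0 higher and 3 lower. Leaving out 1 array gave 2 to 7 higher and 6 to 12 lower, with 2 higher without Trim28MommeD9/+ replicate 6, 3 higher without Trim28MommeD9/+ replicate 1, 2 or 4 or Trim28+/+ replicate 2, 7 or 9, and 6 lower without Trim28MommeD9/+ replicate 5. Psma3, Psmc1, Psmd6, Psmd8, Psmd11, Psmd14, Psmg1 and Psmg2 passed in each leave-out. Psmd5 was lost in 14 of 16, Psmb9 in 12, Psmb1 in 11, Psmb5 in 9, Psmd10 in 8, Psmb6 without Trim28MommeD9/+ replicate 1, 2, 5 or 7 or Trim28+/+ replicate 8, Psmb10 without Trim28MommeD9/+ replicate 2, 5 or 6 or Trim28+/+ replicate 7, and Psmd7 without Trim28MommeD9/+ replicate 5.

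Over all 42 genes tested, 19 changed sign with median scaling of all probes, all to negative, and 22 with the background sets as a block. Among the 19 genes described by array, directions turned with median scaling of all probes for Psmb1 (-0.064), Psmb7 (-0.14), Psmb8 (-0.17), Psmb10 (-0.0029), Psmd10 (-0.11), Psme2 (-0.088), Psmg1 (-0.029) and Psmg2 (-0.014). Within the background sets, and so in the low-background arrays, they turned for Psmb5 (0.090), Psmb7 (-0.068), Psmb9 (0.16), Psmc1 (0.021), Psmd5 (-0.17), Psmd8 (0.0088), Psmd11 (0.12) and Psmd14 (0.15). Psmb8 turned with the authors' values (-0.055) and without Trim28+/+ replicate 5 (leave-outs from -0.0020 to 0.10), and Psmg2 with the mean of its probes (-0.16). The cause was not tested. Dim probes such as Psmd6 limit what the signal over background can show.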
